A study of Homo sapiens with 12 samples.

Results

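SUDHL16 and SUDHL6 are established lines of diffuse large B-cell lymphoma (DLBCL), an aggressive tumor of mature B cells. A set of 41 genes was almost silent in 2 of the 3 libraries of parental SUDHL16 cells and expressed in the venetoclax-resistant SUDHL16 line derived from them, while the third parental library held over 3 counts of 34 of the genes. A gene was taken when it was autosomal and protein-coding, had at most 3 raw counts in each of the parental libraries CE-25 and CE-27, and averaged at least 5 CPM (the count divided by the library total and scaled to counts per 1000000) over the resistant libraries CE-28, CE-29 and CE-30. Symbols starting with HLA- and 2 further symbols were left out of the set. Of 18669 autosomal protein-coding genes in the files, 6415 met the limit in CE-25 and CE-27, and 41 of these (0.639%) also reached the level in the resistant line. The members were chosen by the counts of those 5 libraries, so their values in these libraries are given as a description with no test.

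RNA-sequencing covered 12 libraries, 3 in each of 4 groups: SUDHL6-parental, SUDHL6-resistant, SUDHL16-parental and SUDHL16-resistant. Venetoclax (ABT-199) inhibits the anti-apoptotic protein BCL2, and each resistant line was obtained from its parental line by long exposure to rising venetoclax until it grew at no less than 10 times the original IC50, after which it was kept in the drug. For experiments the cells were put into fresh medium. The labels name no genetic alteration in any group, the 4 groups come from purchased DLBCL lines, and the sources used here do not say whether a resistant line is a clone, whether venetoclax was in that medium when RNA was taken, or whether libraries came from separate cultures, so p-values measure only the spread between these libraries. SUDHL6 was prepared with NEBNext Ultra II and run on HiSeq 4000, whereas SUDHL16 was prepared with Illumina Stranded Total RNA Prep and Ribo-Zero Plus and run on NovaSeq 6000, so line and method cannot be told apart.

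The third parental SUDHL16 library, CE-26, stood apart from the others. It held 4131927 counts against 14335460 to 22068221 in the other 5 SUDHL16 libraries and 33992784 to 40885665 in SUDHL6, and 55.4% of its counts belonged to protein-coding genes, a share that was 84.3% to 90.2% elsewhere in SUDHL16. The gene set did not use CE-26, and its values for the members are given separately. All 14 B-cell markers examined were at 1 CPM or more in CE-25, CE-27 and each resistant library. Markers of other cell types were examined as summed levels of each list. The summed level of 10 fibroblast markers was 37.4 to 61.2 CPM in the parental SUDHL16 libraries and 0.558 to 0.696 CPM in the resistant ones, and that of 10 erythroid and megakaryocyte markers was 161 to 969 and 5.92 to 141 CPM. For 15 myeloid markers, the list closest to several of the switched-on genes, the sums were 4.02 to 29.04 CPM in parental and 2.04 to 9.02 CPM in resistant libraries, and 9 of the 15, including LYZ, CSF1R, MPO and ITGAM, were at 0 in every resistant library. The other sums, parental first, were 69.0 to 92.7 and 76.9 to 123 CPM for T-cell and NK-cell markers, 455 to 1033 and 289 to 368 CPM for plasma cell markers, of which IRF4 is a member of the set, and 146 to 342 and 75.2 to 169 CPM for neural markers. Epithelial markers summed to 0.596 to 27.6 and 0.0995 to 2.08 CPM, endothelial markers to 0 to 26.4 and 0.796 to 2.27 CPM, and germline genes to 3.25 to 48.9 and 5.22 to 8.16 CPM. The part of other cells in the levels below was not tested.

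A gene is transcribed in a B cell when its promoter is accessible and the factors that bind it are present, and promoters rich in the dinucleotide CG can be kept silent by DNA methylation or repressive histone marks. Many of the 41 genes are familiar from immune cells. CD70, a ligand of the TNF family, binds CD27 on lymphocytes, BANK1 is an adaptor of the B-cell receptor, IRF4 and ID3 regulate transcription in germinal center and plasma cells, and VSIR, LAIR1 and SIGLEC5 are inhibitory receptors of leukocytes. Others are better known from neurons, muscle, bone or matrix, such as RIMS2, KCNJ12, ALPL and COL9A3.

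The promoters of 6 of the most abundant members are printed to show windows that are dense in CG beside windows that are not. Each is the 250 bases before the RefSeq gene start in GRCh38.p14, 5′ to 3′ on the strand of the gene, with every CG in capitals. GALNT14 lies at chr2:31138441-31138690 (minus strand), ID3 at chr1:23559502-23559751 (minus), BIN1 at chr2:127107155-127107404 (minus), CPED1 at chr7:120988461-120988710 (plus), ABCA6 at chr17:69141896-69142145 (minus) and BANK1 at chr4:101790480-101790729 (plus). GALNT14 and BANK1 have longer gene models in GENCODE 44, in which these windows lie inside the gene.
GALNT14: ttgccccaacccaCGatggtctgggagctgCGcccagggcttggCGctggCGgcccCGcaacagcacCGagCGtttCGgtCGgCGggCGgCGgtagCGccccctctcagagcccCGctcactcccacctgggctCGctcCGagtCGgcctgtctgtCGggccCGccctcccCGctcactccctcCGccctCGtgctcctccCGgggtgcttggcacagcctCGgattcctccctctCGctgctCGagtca
ID3: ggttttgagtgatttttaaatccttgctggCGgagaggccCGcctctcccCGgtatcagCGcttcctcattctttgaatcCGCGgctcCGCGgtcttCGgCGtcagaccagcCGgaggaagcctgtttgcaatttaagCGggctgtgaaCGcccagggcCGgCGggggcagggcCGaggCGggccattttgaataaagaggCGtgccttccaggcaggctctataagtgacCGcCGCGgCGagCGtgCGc
BIN1: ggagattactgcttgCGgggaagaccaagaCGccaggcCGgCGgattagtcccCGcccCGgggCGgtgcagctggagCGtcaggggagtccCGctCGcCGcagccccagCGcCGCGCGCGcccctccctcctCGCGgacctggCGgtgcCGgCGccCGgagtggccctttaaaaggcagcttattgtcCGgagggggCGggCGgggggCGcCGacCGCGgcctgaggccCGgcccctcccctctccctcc
CPED1: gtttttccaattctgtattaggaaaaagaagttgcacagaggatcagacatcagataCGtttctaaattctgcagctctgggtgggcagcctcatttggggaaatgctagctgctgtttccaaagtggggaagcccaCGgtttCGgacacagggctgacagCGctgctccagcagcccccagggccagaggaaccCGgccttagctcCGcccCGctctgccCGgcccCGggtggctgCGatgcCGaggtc
ABCA6: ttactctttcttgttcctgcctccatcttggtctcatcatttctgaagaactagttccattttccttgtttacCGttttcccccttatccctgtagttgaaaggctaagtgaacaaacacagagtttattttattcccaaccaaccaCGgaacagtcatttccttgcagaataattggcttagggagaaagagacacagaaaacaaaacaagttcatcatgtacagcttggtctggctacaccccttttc
BANK1: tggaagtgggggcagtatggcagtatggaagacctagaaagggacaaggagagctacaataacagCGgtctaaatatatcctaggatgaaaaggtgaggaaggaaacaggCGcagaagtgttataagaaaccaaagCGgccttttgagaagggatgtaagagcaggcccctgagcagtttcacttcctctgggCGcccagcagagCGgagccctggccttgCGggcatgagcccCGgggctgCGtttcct

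The first 3 of these windows were dense in CG and the last 3 were not. GALNT14, ID3 and BIN1 held 26, 24 and 30 CG dinucleotides, with observed-to-expected ratios of 0.82, 1.01 and 0.84. CPED1, ABCA6 and BANK1 held 11, 2 and 8, with ratios of 0.52, 0.20 and 0.46.

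Among the 41 genes, 26 had no count in either CE-25 or CE-27, and the other 15 had at most 6 counts over both libraries. Means in the resistant line ran from 5.13 CPM (COL9A3) to 67.8 CPM (CD70) with a median of 13.3 CPM, with 14 genes at 20 CPM or more and 15 below 10 CPM. A count of 0 in CE-25 and CE-27 allows a level of up to 0.0944 CPM (3 counts over both, counting error only), so against these 2 libraries alone the 26 genes were at least 57.2-fold (B3GNT5) to at least 693-fold (CPED1) higher in the resistant line. These bounds do not hold against CE-26, where LAIR1, for example, was at 93.2% of its resistant mean. The other 15 had ratios of CPM pooled over the resistant libraries to CPM pooled over CE-25 and CE-27 of 33.9 (SYNGR1) to 1084 (CD70). The choice of genes made these ratios large, they leave out CE-26, and that of CD70 rests on 2 pooled parental counts. Per kilobase of the canonical transcript, the resistant levels ran from 0.738 CPM (TBC1D16) to 74.5 CPM (CD70), followed by ID3 at 25.2, PRDX2 at 20.05 and GALNT14 at 16.9 CPM per kb. In bulk RNA, expression in a few cells and a low level in all cells cannot be told apart.

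**Figure D1:**
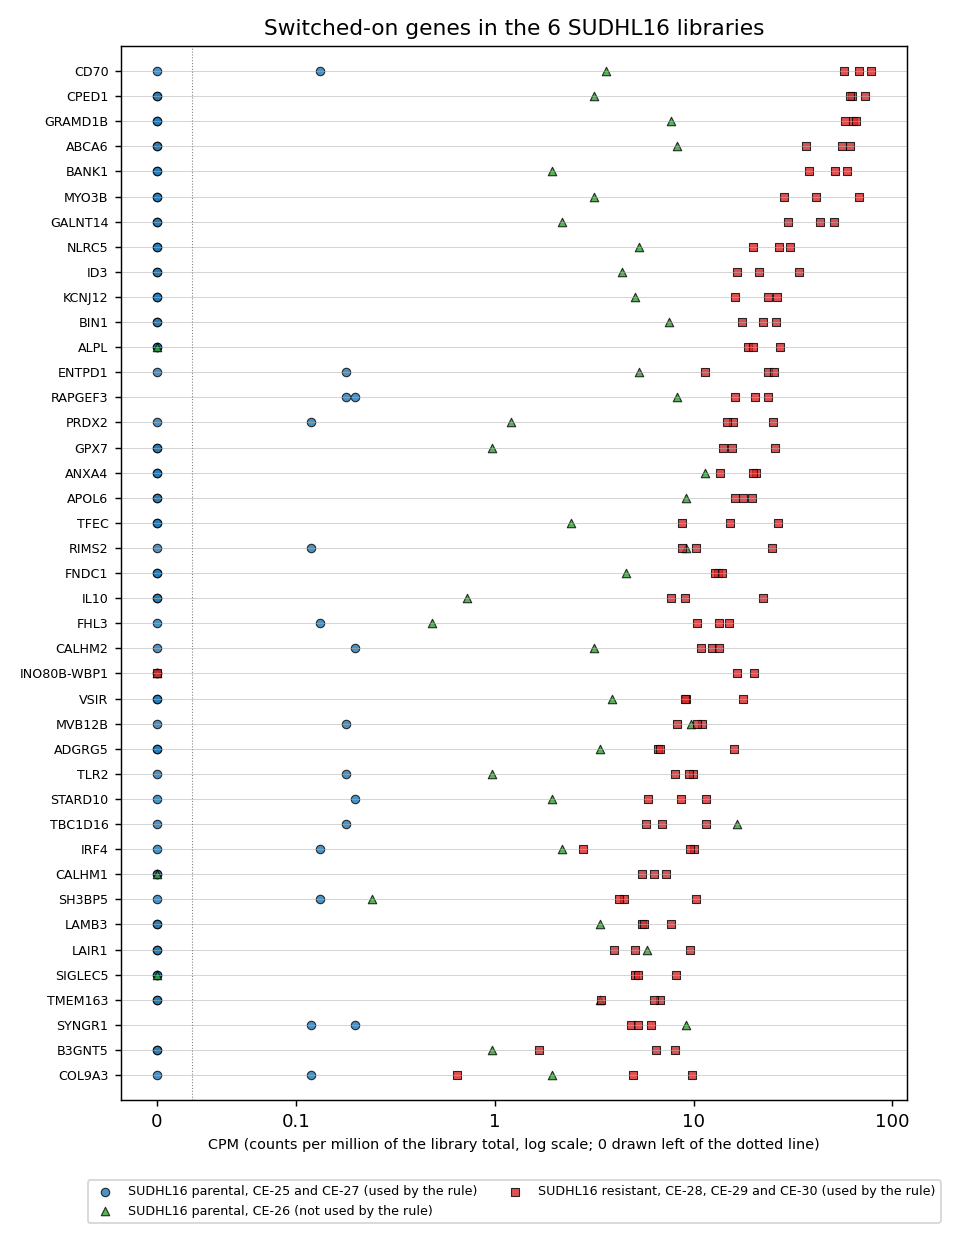
CPM (log scale, 0 drawn left of the dotted line) of the 41 switched-on genes in the 6 SUDHL16 libraries, 1 symbol per library. CE-25 and CE-27 sit at or near 0 and the resistant libraries mostly between 5 and 78.5 CPM, as the choice of genes requires, while CE-26, which was not used, lies between them for most genes.

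The members divided by known role into 10 groups, which were drawn up after the values were seen. Receptors, ligands and a cytokine of immune cells formed the largest group with 8 genes, at 6.17 to 67.8 CPM in the resistant line. CD70 (chr19:6583183-6604103) had 0, 15 and 2 counts in CE-25, CE-26 and CE-27, and 67.8, 57.2 and 78.5 CPM in CE-28, CE-29 and CE-30. ENTPD1, the ectonucleotidase CD39 that removes extracellular ATP, had 3, 22 and 0 counts in the parental libraries and 11.4, 23.7 and 25.4 CPM in the resistant ones. IL10, an anti-inflammatory cytokine, had 0, 3 and 0 counts and 7.67, 9.10 and 22.4 CPM. In CD70 the 3 resistant libraries were close to each other, whereas CE-28 was the lowest of the 3 for ENTPD1 and CE-30 the highest for IL10. VSIR (VISTA), LAIR1, SIGLEC5, the bacterial lipoprotein receptor TLR2 and the adhesion receptor ADGRG5 averaged 11.98, 6.23, 6.17, 9.18 and 9.80 CPM.

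A second group of 6 genes covers immune signalling and transcription, at 7.48 to 49.7 CPM in the resistant line. BANK1 had 0, 8 and 0 counts in CE-25, CE-26 and CE-27 and 38.0, 51.7 and 59.5 CPM in CE-28, CE-29 and CE-30. NLRC5, the transactivator of MHC class I genes, had 0, 22 and 0 counts and 20.02, 30.6 and 27.01 CPM. ID3, an inhibitor of E-protein transcription factors, had 0, 18 and 0 counts and 34.0, 16.6 and 21.3 CPM. All 3 genes were several times higher in each resistant library than in CE-26, the highest parental one. IRF4 had 0, 9 and 2 counts and 2.79, 10.0 and 9.61 CPM, so that its level in CE-28 was close to the 2.18 CPM of CE-26 (95% exact interval 0.996 to 4.13). TFEC, a factor of the MITF family, averaged 16.9 CPM and APOL6, an apolipoprotein L, 17.8 CPM. NLRC5 and APOL6 are known to be induced by interferon, and 27 interferon-stimulated genes, none of them a member, summed to 145 to 219 CPM in the parental and 484 to 717 CPM in the resistant SUDHL16 libraries. Of the 25 tested in SUDHL16, 6 passed the test as higher (IFI44, IFITM1, IRF7, OAS2, OAS3 and SAMD9L) and 0 as lower, where 3.20% of 15708 tested genes were called higher. Their part in the levels of NLRC5 and APOL6 was not tested.

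The lipid genes included the most evenly expressed of the abundant members. GRAMD1B (chr11:123358428-123627774), which moves cholesterol from the plasma membrane to the endoplasmic reticulum, had 0, 32 and 0 counts in CE-25, CE-26 and CE-27 and 63.1, 65.4 and 57.5 CPM in the resistant libraries. ABCA6, a lipid transporter of the ABC family, had 0, 34 and 0 counts and 36.9, 55.5 and 61.3 CPM. Its chromosomal neighbor ABCA9 fell just under the limit, with 3, 23 and 0 counts and a resistant mean of 4.998 CPM. STARD10, a lipid transfer protein, averaged 8.71 CPM. The peroxidases PRDX2 (cytosolic) and GPX7 (endoplasmic reticulum) were at similar means of 18.5 and 18.4 CPM, with PRDX2 highest in CE-28 (25.04 CPM) and GPX7 highest in CE-30 (25.7 CPM).

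Among enzymes of glycans and phosphate, GALNT14, which starts mucin-type O-glycosylation, had 0, 9 and 0 counts in the parental libraries and 50.6, 43.2 and 29.9 CPM in the resistant ones. ALPL, the tissue-nonspecific alkaline phosphatase of bone and liver, had no count in any of the 3 parental libraries and 18.8, 19.9 and 27.1 CPM in the resistant ones. B3GNT5, which builds lacto-series glycolipids, averaged 5.40 CPM and ranged from 1.67 CPM in CE-28 to 8.07 CPM in CE-30. ALPL was thus one of 4 members at 0 in CE-26 as well, with CALHM1, SIGLEC5 and INO80B-WBP1.

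Genes known from excitable cells made up 6 members. KCNJ12, an inward-rectifier potassium channel, had 0, 21 and 0 counts and 23.6, 26.2 and 16.2 CPM. RIMS2, a scaffold of the presynaptic release site, had 2, 38 and 0 counts and 8.79, 10.3 and 24.7 CPM, and its 9.20 CPM in CE-26 (95% exact interval 6.51 to 12.6) overlapped its levels in CE-28 and CE-29. CALHM1 and CALHM2, pores of the calcium homeostasis modulator family, averaged 6.40 and 12.2 CPM, the zinc transporter TMEM163 5.53 CPM and the vesicle protein SYNGR1 5.41 CPM. Matrix proteins were lower, with LAMB3 (a laminin chain) at 6.28 CPM, COL9A3 (a collagen chain) at 5.13 CPM and FNDC1 at 13.3 CPM. LAMB3 and COL9A3 fell in a symbol family that pools collagens and laminins, the only 1 of 23 such families with 2 members. Of the genes at 3 counts or less in CE-25 and CE-27, 0 of 90 zinc finger genes, 0 of 85 homeobox genes and 0 of 157 solute carriers (after the symbols left out above) were members, which at 0.639% of all such genes is near the background. The symbol pattern for TNF ligands does not catch CD70, and no pattern covers CALHM1 and CALHM2.

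The remaining members act mainly on membranes, the cytoskeleton and small GTPases. MYO3B, a class III myosin, had 0, 13 and 0 counts and 28.4, 41.1 and 67.6 CPM. BIN1, which bends membranes and binds MYC, had 0, 31 and 0 counts and 22.4, 17.6 and 25.96 CPM. ANXA4, a calcium-dependent phospholipid-binding protein, had 0, 47 and 0 counts and 20.7, 13.5 and 19.8 CPM. MYO3B differed more between the resistant libraries than BIN1 or ANXA4, while ANXA4 in CE-26 reached 11.4 CPM, close to its level in CE-29. The LIM-domain protein FHL3 averaged 13.0 CPM and the ESCRT-I subunit MVB12B 9.92 CPM. RAPGEF3 (EPAC1), a cyclic AMP sensor that activates Rap, averaged 20.03 CPM, the Rab regulator TBC1D16 8.09 CPM and the kinase-binding protein SH3BP5 6.33 CPM. CPED1, whose role is little known, was the second most abundant member by CPM, with 0, 13 and 0 counts and 62.3, 72.9 and 61.0 CPM.

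Some counts cannot be assigned with certainty, since the counting rule and strand setting are not given in the sources used here. INO80B-WBP1 is a readthrough model that shares 97.5% of its 50-base words with other genes, chiefly INO80B, and it was at 0 in CE-28 but at 16.5 and 20.1 CPM in CE-29 and CE-30. STARD10 shares 46.1% of its words with ARAP1, SIGLEC5 23.1% with SIGLEC14 and KCNJ12 17.02% with KCNJ18. SIGLEC14 itself had at most 5 counts in CE-25 and CE-27 and 7.34 CPM in the resistant line. Antisense or neighboring genes overlapped 53.6% of the exonic bases of SH3BP5 (SH3BP5-AS1), 40.0% of ENTPD1 (ENTPD1-AS1), 19.5% of CALHM2, 16.2% of B3GNT5, 15.2% of RAPGEF3 and 12.1% of PRDX2, so their counts are uncertain as well.

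The limits of the set were not sharp. Just inside the CPM limit were COL9A3 at 5.13, B3GNT5 at 5.40 and SYNGR1 at 5.41 CPM, and just outside were ABCA9 at 4.998, the interferon-stimulated gene IFI44 at 4.88 and the transcriptional repressor TGIF1 at 4.85 CPM. A further 11 genes reached the level in the resistant line but had 4 to 6 counts in CE-25 or CE-27, among them GPR132 (43.8 CPM), LZTS1 (32.9 CPM) and IL27RA (13.7 CPM). With parental and resistant libraries exchanged, 21 genes met the same limits as switched off in resistant SUDHL16. The same count and CPM limits over all 3 libraries of each SUDHL6 group gave 0 genes switched on in the resistant line and 1 switched off. The SUDHL6 numbers are not at a like limit either, since 3 low libraries were asked for and SUDHL6 was sequenced deeper. A count of 3 was 0.073 to 0.088 CPM in parental SUDHL6, but 0.180 CPM in CE-25 and 0.199 CPM in CE-27.

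In CE-26, the parental library that was not used, most members were detected, but so were most other silent genes. Over 3 counts were found for 34 of the 41 members (82.9%), with a median of 14 counts. Among the other 6374 genes at 3 counts or less in CE-25 and CE-27 the share was 57.5% and the median 5 counts, and among the 4715 of these with no count in any resistant library it was 54.1% and 4 counts. For the 128 other silent genes that averaged 1 to 5 CPM in the resistant line it was 69.5% and 9 counts. The members also had longer canonical transcripts than the other silent genes (median 3596 against 2298 bases), and the part of length in these counts was not tested.

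Relative to the resistant line the CE-26 levels, as CPM over the library total, were mostly low. Identifiers outside GENCODE 44 took 31.9% of the CE-26 counts, against 1.61% to 5.06% in the resistant libraries. The CE-26 percentages below are therefore lower than they would be over protein-coding counts. The CPM in CE-26 was below all 3 resistant libraries for 34 members, and its median was 20.6% of the resistant mean, with 14 members under 10% and 32 under 50%. The highest level in CE-26 belonged to TBC1D16, whose 68 counts gave 16.5 CPM (95% exact interval 12.8 to 20.9), 204% of its resistant mean. SYNGR1 in CE-26 was at 170%, MVB12B at 97.5% and LAIR1 at 93.2% of the resistant mean. For these genes CE-25 and CE-27 were near 0 and CE-26 lay within or above the resistant range. Summed over the 41 members, the level was 1.38, 173 and 1.32 CPM in CE-25, CE-26 and CE-27, and 738, 786 and 952 CPM in CE-28, CE-29 and CE-30. In this sum CE-26, the library with the smallest total, stood above the other parental libraries and below each resistant library.

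The spread over the resistant libraries differed among members. The coefficient of variation had a median of 0.255 and ran from 0.0390 (FNDC1) to 0.892 (COL9A3), against a median of 0.219 over 5690 other genes with means in the same range. The highest library was less than 1.5 times the lowest for 15 members and over 2 times for 12, and 33 of the 41 were at 5 CPM or more in each resistant library. By the ratio of the highest to the lowest library, the most even were FNDC1 with 13.3, 12.9 and 13.9 CPM in CE-28, CE-29 and CE-30, GRAMD1B, CPED1, APOL6 (17.6, 16.2 and 19.7 CPM) and CALHM2 (10.95, 12.3 and 13.4 CPM). The least even was COL9A3 with 4.95, 0.647 and 9.79 CPM, followed by B3GNT5, IRF4, TFEC (8.79, 15.2 and 26.6 CPM) and IL10, leaving aside INO80B-WBP1, which was at 0 in CE-28. CE-30 was the highest of the 3 for 26 members, CE-28 for 8 and CE-29 for 7, and CE-30 was also the highest most often among the compared genes (44.6%).

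**Figure D2:**
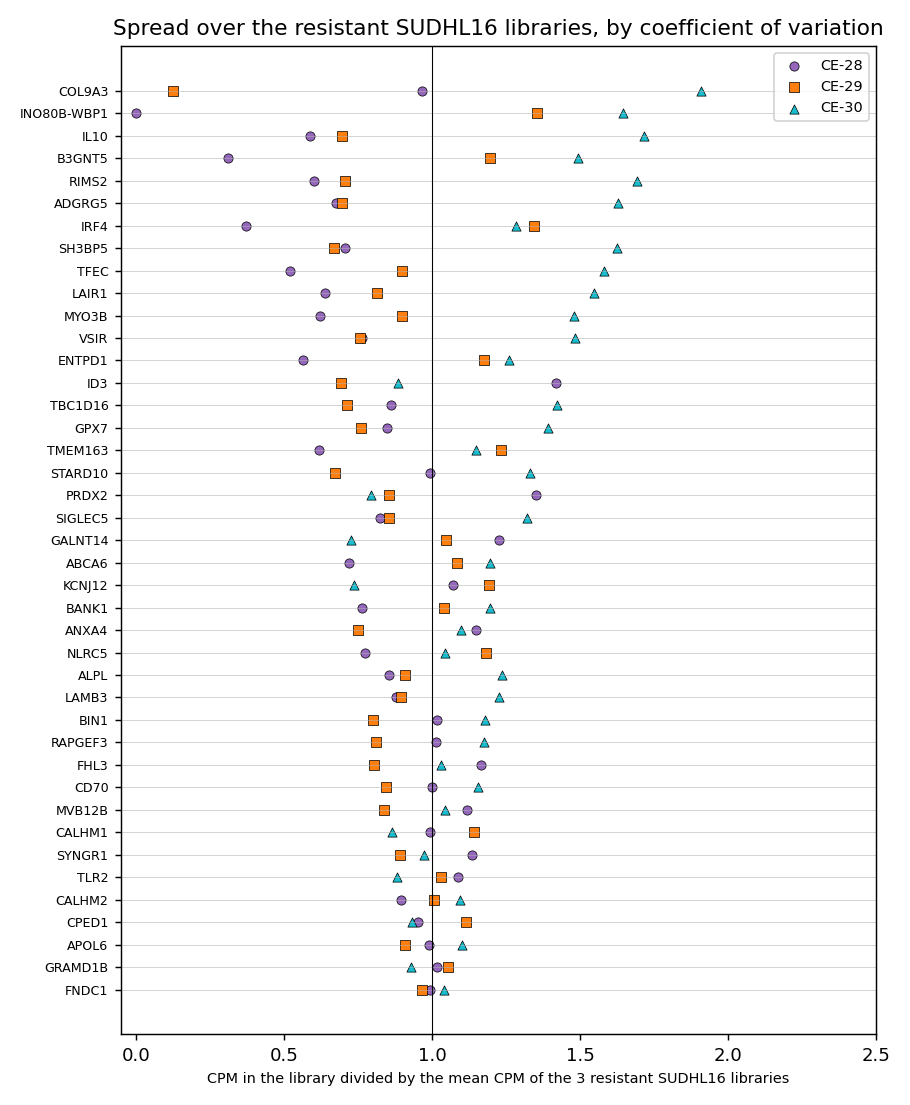
CPM in CE-28, CE-29 and CE-30 divided by the mean of the 3 resistant SUDHL16 libraries (horizontal axis, no unit) for each member, ordered by coefficient of variation. The lower genes, from FNDC1 to SYNGR1, keep all 3 libraries near 1, and in the upper genes, such as COL9A3, IL10 and RIMS2, CE-30 stands well above the mean.

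When fitted over all 6 SUDHL16 libraries with edgeR's quasi-likelihood test (called at a Benjamini-Hochberg adjusted p under 0.05 and at least 1.5-fold), 40 of the 41 members were tested and 12 were called, all higher in the resistant line, where 3.20% of 15708 tested genes were called higher. Without CE-26 the fit called 40 of 41 members, with 6.73% of tested genes called higher. These libraries chose the members, and nothing is read from the counts.

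SUDHL6 was not used to choose the genes, and many of the genes silent in parental SUDHL16 were expressed in parental SUDHL6. A mean of 1 CPM or more was found in parental SUDHL6 for 18 of the 41 members (43.9%), against 434 of the other 6374 silent genes (6.81%), 40 of the 128 silent genes at 1 to 5 CPM in resistant SUDHL16 (31.2%) and 56.4% of all autosomal protein-coding genes. At the other end, 5 members (12.2%) had at most 3 counts in each of the 6 SUDHL6 libraries, against 64.1% of the other silent genes. The share was 21.1% for the 128 silent genes at 1 to 5 CPM and 25.5% for all autosomal protein-coding genes. Kit and platform differ between the lines, and their part in these shares was not tested.

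IRF4 was the most abundant member in SUDHL6, with 366, 367 and 361 CPM in the parental libraries CE-7, CE-8 and CE-9. PRDX2 followed at 129, 126 and 135 CPM and ID3 at 56.9, 52.3 and 58.4 CPM. CD70 had 48.6, 51.7 and 48.7 CPM and SYNGR1 28.5, 31.1 and 29.1 CPM. These 5 genes were thus abundant in one parental DLBCL line and at 0 to 3 counts in CE-25 and CE-27 of the other. Per kilobase of canonical transcript the order of these 5 was PRDX2, IRF4, ID3, CD70 and SYNGR1. For 6 members, the parental SUDHL6 mean lay above the resistant SUDHL16 mean: IRF4, PRDX2, ID3, SYNGR1, APOL6 (21.6 CPM ± 1.14, SD, n = 3) and SH3BP5 (6.79 CPM ± 0.665, SD, n = 3). At the low end, ABCA6 and TFEC had no count in any SUDHL6 library. CPED1, MYO3B, IL10, VSIR, CALHM1, ADGRG5, TLR2, SIGLEC5 and MVB12B averaged no more than 0.108 CPM in either SUDHL6 group.

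**Figure D3:**
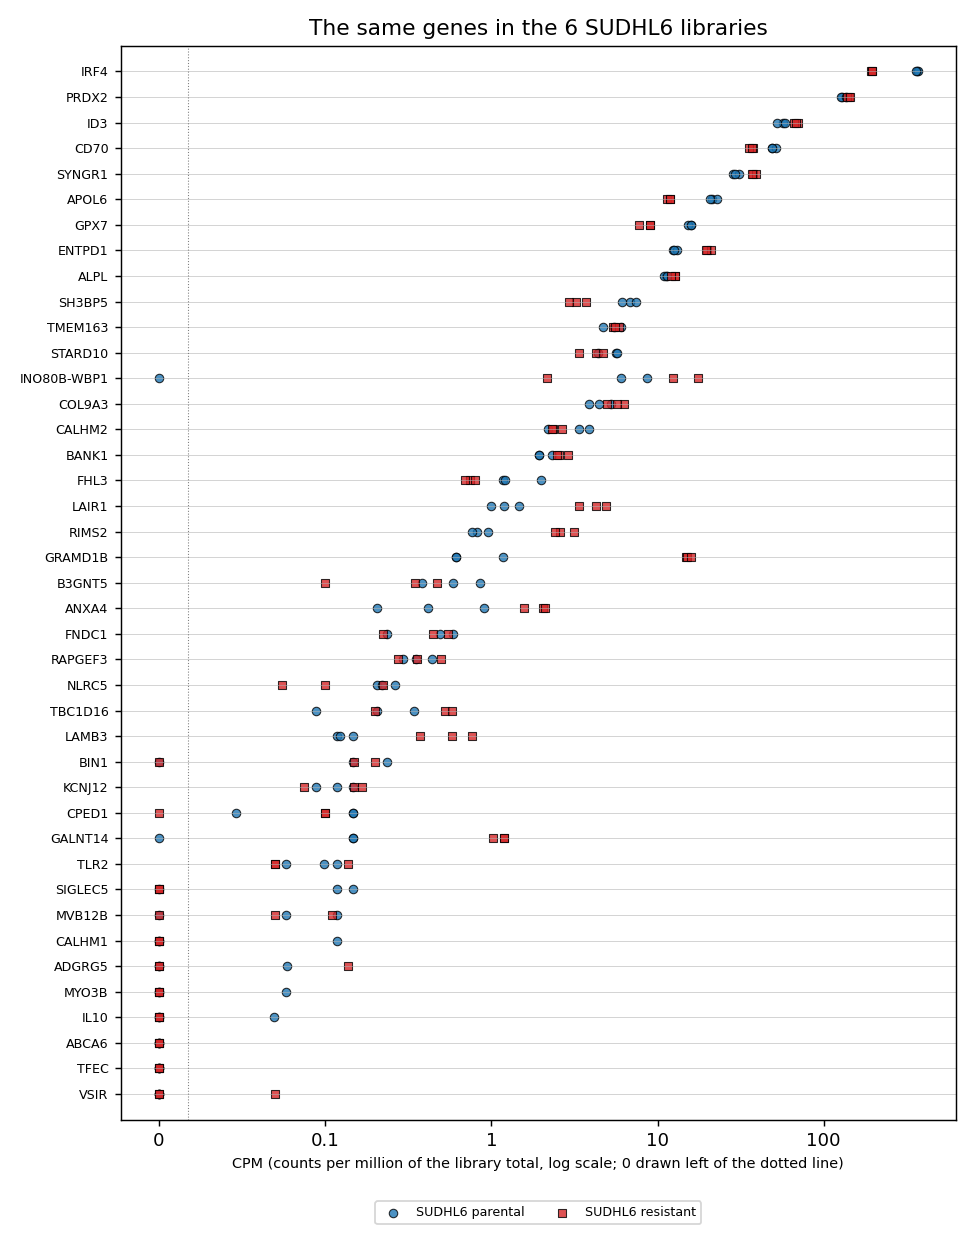
CPM (log scale, 0 drawn left of the dotted line) of the same 41 genes in the 3 parental and 3 resistant SUDHL6 libraries, ordered by the parental mean. Levels run from 365 CPM for IRF4 to 0 for ABCA6 and TFEC, and the groups separate upward for GRAMD1B, GALNT14, LAIR1, RIMS2, ANXA4, LAMB3 and ENTPD1 and downward for IRF4, APOL6, GPX7, SH3BP5 and FHL3.

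The SUDHL6 libraries answer whether genes switched on in resistant SUDHL16 also differed between resistant and parental cells of the other line. Both directions were found. Of the 41 members, 27 passed the filter on low counts and 12 of these 27 (44.4%) were called by edgeR's quasi-likelihood test, where 8.96% of 16662 tested genes were called. Higher in resistant SUDHL6 were 7 (4.31% of tested genes were called higher) and lower were 5 (4.65%). The median log2 fold change of the 27 was 0.14, beside 0.00 over all tested genes. In an edgeR fit of all 12 libraries together, 0 members were called in SUDHL6 and 3 had an unadjusted p under 0.05. That fit shares its estimate of spread with the more variable SUDHL16 libraries, and it called only 140 of 19621 tested genes in SUDHL6. The 14 genes below the filter are not covered by these counts, and a gene could pass it through its level in 1 group. GALNT14, ANXA4 and LAMB3 did so, since they reached the level of the filter (0.262 CPM) in every resistant but not every parental SUDHL6 library, and their calls as higher followed in part from this. The other 9 calls, 4 higher and 5 lower, were of genes above that level in all 6 libraries. Without regard to the fit, the resistant libraries were all above the parental ones for 12 members, all below for 6 and overlapping for 23, and 18 of the 27 tested members did not overlap, where 47.9% of tested genes did not.

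Of the members called higher in resistant SUDHL6, GRAMD1B changed most. It had 0.614, 1.18 and 0.611 CPM in parental CE-7, CE-8 and CE-9 and 14.9, 15.1 and 15.99 CPM in resistant CE-10, CE-11 and CE-12, a log2 fold change of 4.26 ± 0.17 (SE, edgeR adjusted p = 1.49e-09). GALNT14 had 0.146, 0 and 0.147 CPM in the parental and 1.19, 1.02 and 1.19 CPM in the resistant libraries (log2 3.44 ± 0.48 SE, edgeR adjusted p = 0.000103). Neither pair of groups overlapped, and the resistant level of GRAMD1B in SUDHL6 remained below the 57.5 to 65.4 CPM of resistant SUDHL16. LAIR1, an inhibitory receptor for collagens, had 0.995, 1.47 and 1.20 CPM against 4.93, 3.35 and 4.28 CPM (log2 1.77 ± 0.19 SE, edgeR adjusted p = 1.26e-05). RIMS2 had 0.819, 0.765 and 0.954 CPM against 2.59, 2.41 and 3.15 CPM (log2 1.66 ± 0.19 SE, edgeR adjusted p = 1.76e-05). ANXA4 rose by 1.90 ± 0.36 (SE) on the log2 scale and LAMB3 by 2.12 ± 0.44 (SE), both from parental means under 1 CPM. ENTPD1, the seventh, rose from 12.4, 13.2 and 12.5 CPM to 19.99, 20.9 and 19.7 CPM (log2 0.66 ± 0.06 SE, edgeR adjusted p = 3.57e-06). None of the 7 had overlapping groups in SUDHL6.

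The genes lower in resistant SUDHL6 included immune regulators. IRF4 fell from 366, 367 and 361 CPM to 192, 195 and 195 CPM (log2 -0.92 ± 0.02 SE, edgeR adjusted p = 7.91e-12). APOL6 fell from 21.3, 22.9 and 20.6 CPM to 11.4, 11.8 and 11.9 CPM (log2 -0.89 ± 0.06 SE, edgeR adjusted p = 3.16e-07), and the peroxidase GPX7 from 15.9, 15.3 and 15.8 CPM to 9.01, 8.98 and 7.76 CPM (log2 -0.88 ± 0.08 SE, edgeR adjusted p = 2.00e-06). In all 3 genes every resistant library lay below every parental one. SH3BP5 fell from 6.88, 7.41 and 6.09 CPM to 3.73, 3.25 and 2.93 CPM (log2 -1.04 ± 0.13 SE). FHL3 fell from 1.17, 1.21 and 1.98 CPM to 0.747, 0.794 and 0.690 CPM (log2 -0.98 ± 0.25 SE, edgeR adjusted p = 0.00893), a call that was lost without CE-9 (adjusted p = 0.0606). CD70 was below the fold limit, at 48.6, 51.7 and 48.7 CPM in parental and 37.6, 35.7 and 37.2 CPM in resistant libraries (log2 -0.44 ± 0.04 SE, edgeR adjusted p = 2.47e-06).

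**Figure D4:**
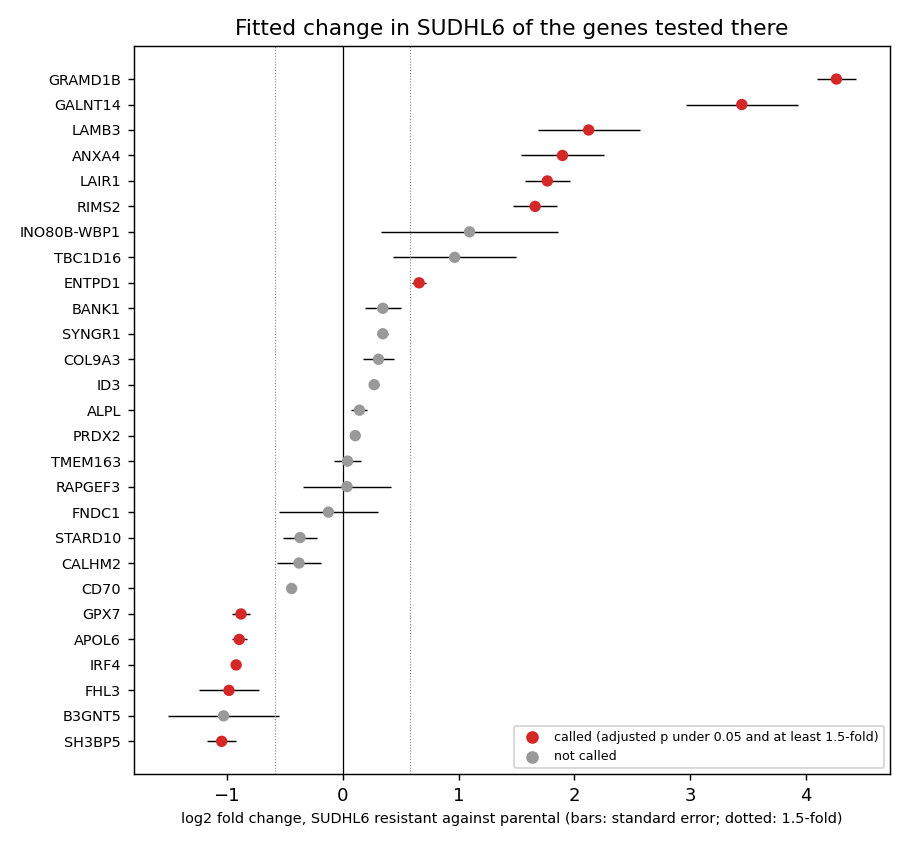
log2 fold change of resistant against parental SUDHL6 (horizontal axis; bars, standard error from the edgeR fit; dotted lines, 1.5-fold) for the 27 members tested there. The 7 called higher run from ENTPD1 at 0.66 to GRAMD1B at 4.26, and the 5 called lower from GPX7 at -0.88 to SH3BP5 at -1.04.

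Other members abundant in SUDHL6 differed little between its groups. ID3 (log2 0.27 ± 0.04 SE), SYNGR1 (0.35 ± 0.05 SE) and PRDX2 (0.11 ± 0.03 SE) passed the adjusted p limit of edgeR but not the fold limit. BANK1 was at 2.31, 1.94 and 1.93 CPM in parental and 2.54, 2.88 and 2.49 CPM in resistant libraries (log2 0.35 ± 0.15 SE, edgeR adjusted p = 0.0967), so its difference was not established at this limit. ALPL (0.14 ± 0.07 SE) and COL9A3 (0.31 ± 0.13 SE) did not pass either. The largest fold changes that did not pass were those of INO80B-WBP1 (1.10 ± 0.76 SE), B3GNT5 (-1.03 ± 0.48 SE) and TBC1D16 (0.97 ± 0.53 SE), all with wide errors.

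The members were spread over 16 of the 22 autosomes, with 6 each on chromosomes 1 and 2. Only 2 pairs lay within 1 Mb of each other. CALHM1 and CALHM2 are neighbors on chromosome 10 with 838 bp between them, and NLRC5 and ADGRG5 lie 459112 bp apart on chromosome 16. The other tested genes within 1 Mb of a member were higher in resistant SUDHL16 in 370 of 632 cases (58.5%, log2 fold change above 0), against 52.9% of all tested autosomal protein-coding genes, and the median change around a member ran from -0.47 to 1.03 with a median of 0.11. The cases were summed over members, so a gene near several members was counted once for each. The largest value belonged to KCNJ12, where all 6 tested neighbors were higher. TBC1D16 (median 0.65, 13 of 15 higher), ABCA6 (0.62, 5 of 8) and COL9A3 (0.59, 31 of 35) followed. The median was above 0 around 31 of the 41 members.

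RefSeq promoter windows were found for 32 of the 41 members, all but CD70, GRAMD1B, NLRC5, KCNJ12, APOL6, RIMS2, ADGRG5, TBC1D16 and COL9A3. A window was counted as dense in CG when its observed-to-expected CG ratio was at least 0.6 and its GC content at least 50%. Dense windows, as printed for GALNT14, ID3 and BIN1, were found for 18 of the 32 (56.2%), against 33.8% of the other silent genes with a window, 81.2% of genes at 5 CPM or more in CE-25 and CE-27, and 62.1% of all autosomal protein-coding genes. The members were thus between the silent and the expressed genes of parental SUDHL16. Of the 15 members with a window that were at 1 CPM or more in parental SUDHL6, 10 were dense (median ratio 0.78), and of the 17 below that level 8 were (median ratio 0.58). By ratio the highest was PRDX2 (38 CG, ratio 1.09) and the lowest MYO3B (0 CG), while SYNGR1 held the most CG (48).

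Motif letters were counted in the same windows on both strands. GGGCGG, the core of the GC box, was present in 20 of 32 member windows (62.5%), against 38.2% of windows of other silent genes and 57.3% of all windows, and it overlaps with CG density. TATAAA was present in 2 (6.25%; 9.22% of all windows), those of IRF4 and IL10. The E-box CACGTG was present in 4 (12.5%; 7.84% of all), those of CALHM2, TLR2, SIGLEC5 and ALPL. TTCNNNGAA, the letters bound by STAT factors, was present in 2 (6.25%; 6.21% of all). A match describes letters in a window and not binding.

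Genes that act in or against gene silencing were examined from a separate list of 20. It includes DNA methyltransferases, polycomb subunits and histone deacetylases, and also the TET enzymes and KDM6A, which remove silencing marks. DNMT3B, a de novo DNA methyltransferase, passed the test as higher in the resistant cells of both lines, in which the fits shared no library. It was 1 of 20 tested in SUDHL6, where 4.31% of all tested genes were called higher. In SUDHL16 it was 1 of 19, where 3.20% were, so both counts were near the background. EHMT1, a histone methyltransferase, passed the test as lower in resistant SUDHL16, where 19 of the list were tested and 330 of 15708 genes were called lower. The median log2 fold change of the list, which pools both kinds of gene, was -0.10 in SUDHL6 and 0.09 in SUDHL16, beside 0.00 and -0.02 over all tested genes.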

How the data were processed

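The authors deposited raw counts per gene for each of the 12 libraries, and the counting tool, annotation and strand setting are not given in the sources used here; the submitters' processing notes name Trim Galore, HISAT2, StringTie and edgeR with GRCh38. The 60675 identifiers were matched to GENCODE 44 (56558 matched). Counts were divided by the library total to give CPM. Resistant and parental libraries of each line were compared with edgeR 4.0.16 (R 4.3.3; filterByExpr, TMM, quasi-likelihood test, two-sided, Benjamini-Hochberg adjustment over all tested genes), after a check on simulated counts. DESeq2 1.42.0, other scalings and filters, a single fit of both lines and fits without each library were alternatives. Exact Poisson intervals and floors cover counting error only. No 2 libraries held identical counts. The members and gene lists were chosen with earlier results of these data known. Genes named were the 20 most abundant members, the 10 largest calls in SUDHL6, the highest 5 in CE-26, the most and least even, those at the limits, the 5 highest in SUDHL6 and members sharing a family; the remaining members were added so that each is accounted for, and GPX7 and ENTPD1 were thus named beside the other calls. Promoter sequences are from RefSeq (GRCh38.p14). The result of 1 gene of the silencing list is not reported here.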

Additional observations from a re-analysis of the deposited data

Results flagged for a closer look

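For 6 members the resistant libraries lay above CE-25 and CE-27 in SUDHL16, which the choice of genes fixed, and below every parental library in SUDHL6. Groups without overlap were common in SUDHL6, at 47.9% of 16662 tested genes over both directions, and CD70 was not called there. The log2 fold changes in SUDHL6 were -0.44 for CD70, -0.88 for GPX7, -0.89 for APOL6, -0.98 for FHL3, -0.92 for IRF4 and -1.04 for SH3BP5. In all 6 genes CE-26 was also below each resistant SUDHL16 library. The difference between the lines was not tested, since kit and platform differ with the line.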

How the results depend on the processing

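The number of members moved with the limits, to 26 at 0 counts, 26 at 1 count or less, 82 at 10 counts or less, 95 at a mean of 2 CPM or more, 26 at 10 CPM or more, and 7 when CE-26 also had to be at 3 counts or less. Leaving out 1 library gave 40 to 79 members, with 79 without CE-25 and 64 without CE-27. The 12 calls in SUDHL6 became 0 (3 at an unadjusted p under 0.05) in a single edgeR fit of all 12 libraries. That fit called 140 of 19621 tested genes in SUDHL6. It shares 1 estimate of spread with SUDHL16 (biological coefficient of variation 0.468 against 0.0516 in SUDHL6). With 1 library left out, 11 to 12 members were called, in fits that called 1369 to 1462 genes in all. DESeq2 also called 12 members, of 39 tested, and 1416 of 33151 genes. Members called in SUDHL16 were 20 with no filter, 21 in the single fit and 1 to 40 with 1 library left out. They were lowest without CE-29 and highest without CE-26, with 6, 6, 4 and 2 without CE-25, CE-27, CE-28 and CE-30. Genes called higher were 554 of 41969 with no filter and 1590 of 19621 in the single fit. They were 163 of 16744 without CE-29 and 1095 of 16280 without CE-26. Without CE-25, CE-27, CE-28 and CE-30 they were 216, 247, 184 and 185. Differences near 0 in SUDHL6 changed sign with 1 library left out, with ranges of -0.22 (without CE-11) to 0.23 for RAPGEF3, -0.41 to 0.17 (without CE-10) for FNDC1 and -0.050 (without CE-9) to 0.13 for TMEM163. RAPGEF3 was also -0.09 and FNDC1 0.13 without CE-7. Of the recomputed values of single genes in SUDHL6, 279 kept their direction and their call (adjusted p and fold limit together; the adjusted p alone crossed 0.05 in some), and 13 were no longer called, 12 in the single fit and FHL3 without CE-9. The causes of these changes were not tested. No paired analysis was possible because the labels carry no replicate numbers.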
